A study of Mus musculus with 6 samples.

Results

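Genes that carry out DNA replication and mitosis were followed in the ventral forebrain of mouse embryos with and without Olig2, a transcription factor of the basic helix-loop-helix class. The list held 46 genes, 24 with S phase roles and 22 with roles in G2 phase and mitosis (G2/M). Its members were all probe sets, other than the array's controls, that the platform annotation assigns to exactly 1 gene symbol, where that symbol is on the list. This gave 102 probe sets for 44 genes, of 45037 non-control probe sets on the array. Chaf1a, a subunit of the chromatin assembly factor, and Ccnb1, a mitotic cyclin, had no probe set of their symbol alone and have no value here. A probe set was kept if its value was above the array median on at least 3 of the 6 arrays. That left 81 of the 102 probe sets, 45 for S phase and 36 for G2/M. None was kept through 1 genotype alone, and 78 were above the median on all 6 arrays. Each gene is represented by its brightest kept probe set, as are the 10630 genes of the whole array with which the members are compared.

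The samples were Olig2-/- (knockout) and Olig2+/+ (wild-type) embryos at E13.5, where the letter stands for embryonic day. Each array, an Affymetrix MOE430 2.0 chip that reports 1 log2 value per probe set, carried labelled cRNA made from 6 ug of total RNA. That RNA came from a pool of 3 brains, so differences between single embryos were averaged before measurement. The tissue is named ventral forebrain in the design text and ventral telencephalon in the labels. The design text speaks of 5 replicates per genotype. Those analysed here were wild-type replicates 1, 4 and 5 and the knockout replicates numbered 2, 4 and 5. The sources used here do not give the mouse strain or how the Olig2 allele was disrupted. P-values measure the spread between these 6 pooled samples. The title of the series places the work in prethalamus development. In a bulk sample of this kind, fewer dividing cells and less of a transcript per dividing cell cannot be told apart.

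Dividing progenitors line the ventricles of the embryonic forebrain, and their daughters leave the cell cycle as they become neurons. Before S phase, the Mcm2 to Mcm7 helicase is loaded at replication origins with the help of Cdc6 and Cdt1, and it is switched on together with Cdc45 and the GINS complex. Many genes of this stage are controlled by E2F transcription factors. Genes for mitosis are transcribed later in the cycle, through promoter elements called the cell cycle genes homology region (CHR) and through CCAAT boxes.

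The promoters of several members are shown because S phase and G2/M genes held different words in these windows. RefSeq promoter windows of assembly GRCm38.p6, from 250 bases before to 50 bases after the transcription start, were matched for 36 of the 46 genes in 38 windows. They were searched on both strands for the E2F words TTTGGCGC, TTTCGCGC, TTTCCCGC and TTTGCCGC. Below are the 160 bases before the start of 3 genes with such words, 5′ to 3′ on the gene's strand, with the E2F words in capitals on whichever strand they lie. Overlapping words run together.
Mcm5: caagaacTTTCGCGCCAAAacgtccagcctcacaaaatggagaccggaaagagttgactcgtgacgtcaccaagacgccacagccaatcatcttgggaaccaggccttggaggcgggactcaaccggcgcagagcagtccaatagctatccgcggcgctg
Mcm6: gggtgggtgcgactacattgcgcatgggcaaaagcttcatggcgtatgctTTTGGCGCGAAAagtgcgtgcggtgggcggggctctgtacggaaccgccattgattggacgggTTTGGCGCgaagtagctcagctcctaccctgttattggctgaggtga
Cdc6: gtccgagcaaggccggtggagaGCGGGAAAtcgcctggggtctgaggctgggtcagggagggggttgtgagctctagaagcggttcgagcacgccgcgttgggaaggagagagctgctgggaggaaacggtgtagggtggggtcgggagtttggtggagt
The Mcm5 stretch is chr8:75109349-75109508 (plus strand), that of Mcm6 is chr1:128359706-128359865 (minus strand) and that of Cdc6 is chr11:98907991-98908150 (plus strand). Mcm5 and Mcm6 encode helicase subunits, and Cdc6 encodes a loading factor of that helicase.

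The next 5 stretches belong to G2/M genes. Capitals mark the CHR words TTTGAA and TTTAAA and the CCAAT box, which reads TTCAAA and ATTGG on the opposite strand. TTTAAA reads the same on both strands.
Cdk1: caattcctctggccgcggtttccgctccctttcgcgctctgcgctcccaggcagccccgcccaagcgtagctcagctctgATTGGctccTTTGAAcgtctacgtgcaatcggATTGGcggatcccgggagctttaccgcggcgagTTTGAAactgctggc
Cdc20: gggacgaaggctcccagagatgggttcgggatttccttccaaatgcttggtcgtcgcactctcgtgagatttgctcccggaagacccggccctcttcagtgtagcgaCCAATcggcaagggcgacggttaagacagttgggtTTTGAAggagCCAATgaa
Plk1: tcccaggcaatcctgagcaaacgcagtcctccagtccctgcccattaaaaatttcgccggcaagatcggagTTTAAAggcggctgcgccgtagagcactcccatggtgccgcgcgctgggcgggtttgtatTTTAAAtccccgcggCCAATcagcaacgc
Top2a: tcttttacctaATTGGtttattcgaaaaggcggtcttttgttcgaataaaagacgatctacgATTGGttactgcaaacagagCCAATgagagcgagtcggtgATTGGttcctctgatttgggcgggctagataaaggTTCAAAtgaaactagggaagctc
Kif11: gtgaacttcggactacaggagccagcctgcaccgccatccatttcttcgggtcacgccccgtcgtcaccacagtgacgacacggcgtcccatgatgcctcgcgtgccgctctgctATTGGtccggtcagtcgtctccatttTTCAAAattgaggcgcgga
They lie at chr10:69352913-69353072 (minus strand) for Cdk1, the mitotic kinase, and at chr4:118437344-118437503 (minus strand) for Cdc20, an activator of the anaphase-promoting complex. Plk1, a mitotic kinase, is at chr7:122159275-122159434 (plus strand). Top2a, a topoisomerase that untangles sister chromatids, is at chr11:99024190-99024349 (minus strand). Kif11, a spindle motor, is at chr19:37376222-37376381 (plus strand). In each of these 5 stretches at least 1 CHR word and at least 1 CCAAT box were found.

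E2F words occurred in 9 of the 22 S phase windows (40.9%) and in 1 of the 16 G2/M windows (6.25%), that of Cdk1, where the word is left in lower case above. They occurred in 4.1% of the 11257 windows of genes with a kept probe set and in 2.26% of all 32851 windows. CHR words had the opposite split, with 14 of 16 G2/M windows (87.5%) against 6 of 22 S phase windows (27.3%), 19.1% of the windows of kept genes and 27.6% of all windows. A CCAAT box was found in 87.5% of G2/M and 77.3% of S phase windows, against 38.2% for kept genes and 37.4% for all windows. Both a CHR word and a CCAAT box were found in 13 of 16 G2/M windows (81.2%), in 22.7% of S phase windows, in 7.46% for kept genes and in 10.7% of all windows. A match describes these letters and is not a measured binding site. A window without one lacks only these words in this stretch. Chaf1a and Ccnb1 have a window although they have no value, while 10 members, Mcm4 and Foxm1 among them, were not matched.

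**Figure D1:**
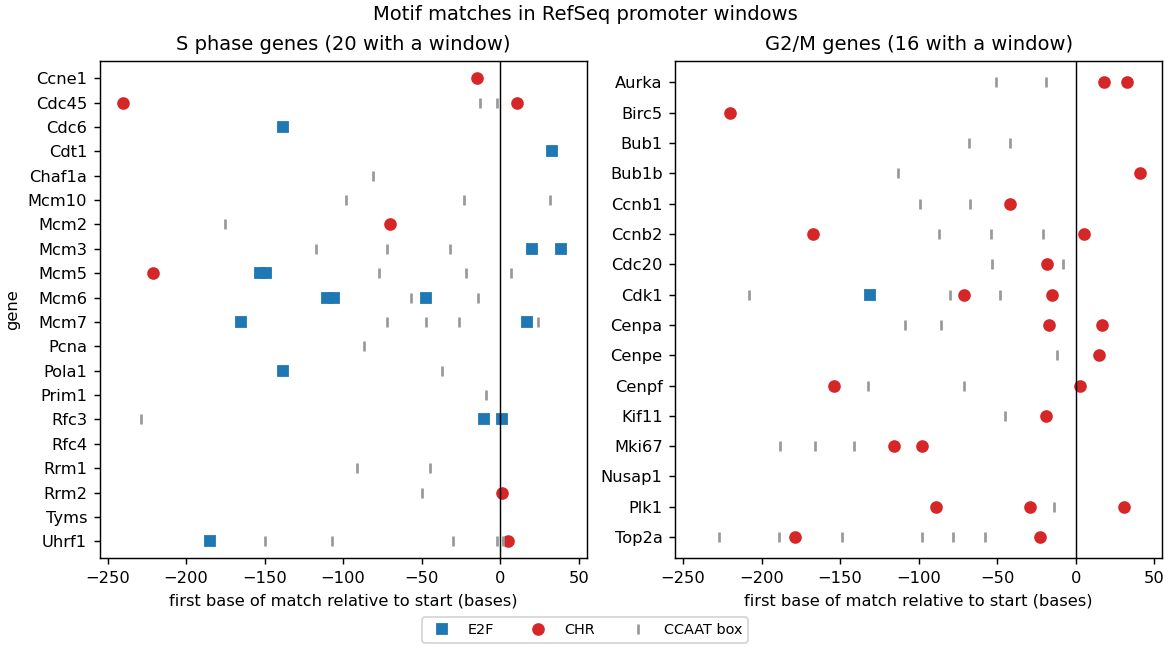
Position of each E2F word, CHR word and CCAAT box in the RefSeq promoter windows of the S phase genes (left, 20 genes) and the G2/M genes (right, 16 genes), as the first base of the match relative to the transcription start, in bases. E2F squares lie almost wholly in the left panel, with Cdk1 as the 1 exception, and CHR circles are found in 14 of the 16 G2/M genes; Mcm7 and Uhrf1 each have 2 windows drawn on 1 line.

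Olig2 itself, the targeted gene, read 8.20, 8.22 and 8.42 on wild-type replicates 1, 4 and 5 and 7.48, 7.53 and 7.76 on knockout replicates 2, 4 and 5. The genotypes did not overlap, and the knockout was 1.62-fold lower (log2 difference -0.69, SE 0.11, limma adjusted p = 0.511). Whether this probe set falls inside the disrupted stretch is not stated in those sources. Of the ventral forebrain markers, Dlx1 lay between 11.03 and 11.47 and Dlx2 between 9.97 and 10.80 over the 6 arrays, and Nkx2-1 lay between 2.69 and 3.36 and was not kept. None of 8 hindbrain and spinal cord genes, 7 Hox genes and Egr2, was kept. No probe set of the array passed limma's test at an adjusted p of 0.05, which is 0% of 22565 with all 6 arrays and 0% without wild-type replicate 1. At an unadjusted p below 0.05 there were 2121 of 22565 probe sets.

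Wild-type replicate 1 stood apart from the other 5 arrays in these genes, so the lists and the genotype difference of each member are given with and without it. It was the lowest of the 6 arrays for 35 of the 44 measured members (79.5%), against 27.0% of all 10630 genes. The share was 82.6% for S phase genes (19 of 23) and 76.2% for G2/M genes (16 of 21). Compared with the mean of wild-type replicates 4 and 5, wild-type replicate 1 was lower in 41 of 44 members, with a median of -0.39 on the log2 scale; over all genes the median was 0.01. The exceptions were Mcm6, Tyms, which encodes thymidylate synthase, and Foxm1. By phase, this median was -0.40 for S phase genes and -0.31 for G2/M genes. Wild-type replicate 5 lay at the other end. It was the highest array for 27 of 44 members (61.4%), against 15.1% of all genes. For 18 of 44 members (40.9%) wild-type replicate 1 was lowest and wild-type replicate 5 highest, against 3.98% of all genes.

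The spread among the members was therefore mainly a spread within the wild type. The standard deviation (SD) within wild type exceeded that within knockout in 43 of 44 members (97.7%), with Foxm1 the exception, against 63.2% of all genes. Its median was 0.24 for wild type and 0.07 for knockout, against 0.14 and 0.10 over all genes. In 42 of 44 members the range over the 3 wild-type arrays was wider than the difference between genotypes; that held for 82.9% of all genes.

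**Figure D2:**
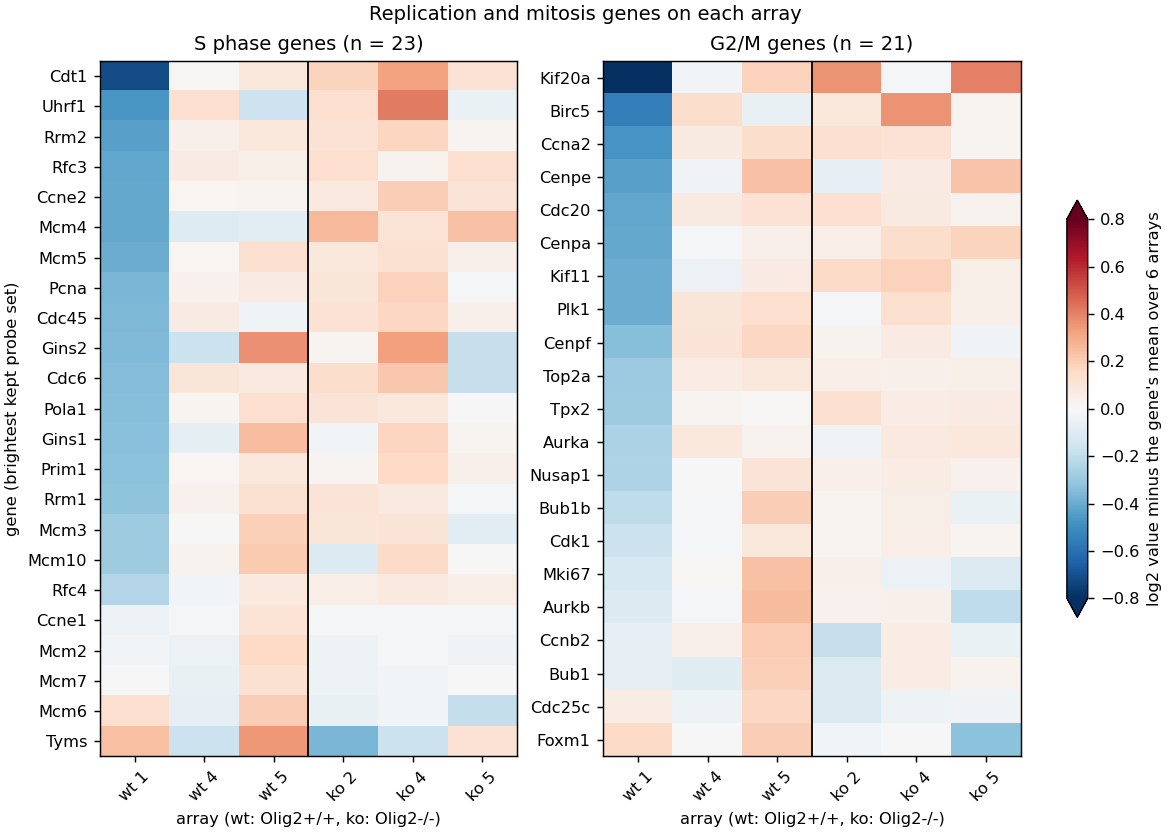
Log2 value of each measured S phase gene (23) and G2/M gene (21) on each of the 6 arrays, drawn as the deviation from that gene's mean over the 6 arrays. The column of wild-type replicate 1 is low in nearly every row, 35 of 44 rows have their lowest value there, and the 3 knockout columns stay close to each other.

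With all 6 arrays, most replication and mitosis genes had a higher mean in the knockout, by small amounts. Of the S phase genes 18 were higher and 5 lower, with a median difference of 0.12 on the log2 scale. Of the G2/M genes 15 were higher and 6 lower, with a median of 0.09. Over all genes the median difference was -0.0015 and 49.3% were higher. The G2/M median less the S phase median was -0.03. On single arrays, the SD within a genotype of the corresponding gap between the phases was 0.04. Without wild-type replicate 1 the upward shift was gone from both phases, and most G2/M genes were then lower in the knockout, by small amounts. The S phase median became -0.02, with 11 higher and 12 lower, and the G2/M median became -0.02, with 5 higher and 16 lower. All genes then had a median of 0.0035, with 51.3% higher. Only wild-type replicates 4 and 5 remained in that comparison. Replicate 5 was the highest array for 14 of 21 G2/M genes (66.7%), against 15.1% of all genes. As mean deviations from each gene's own mean, G2/M genes stood at 0.02 on replicate 4 and 0.13 on replicate 5. The knockout arrays stood at 0.02 to 0.07, so the lower G2/M values were not seen against replicate 4 on average.

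Other single arrays also moved these medians. Without wild-type replicate 5 the medians were 0.23 for S phase genes, with 21 of 23 higher, and 0.16 for G2/M genes, with 18 of 21 higher. Leaving out wild-type replicate 4 gave 0.16 and 0.15. The difference between the phases, G2/M minus S phase, was -0.09 when knockout replicate 5 was left out and -0.07 when wild-type replicate 5 was. Of the 44 members, 17 passed from higher to lower in the knockout when wild-type replicate 1 was left out, 7 in S phase and 10 in G2/M. Another 16 were higher both ways and 11 were lower both ways. Over all 10630 genes, 736 passed from higher to lower, 4500 were higher both ways and 4413 were lower both ways.

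Averaged over the genes of a phase, the deviation from each gene's own mean was -0.28 on wild-type replicate 1 for S phase genes and -0.28 for G2/M genes. S phase genes averaged -0.01 on wild-type replicate 4 and 0.11 on wild-type replicate 5, and 0.05, 0.12 and 0.01 on knockout replicates 2, 4 and 5. G2/M genes averaged 0.02 and 0.13 on the same wild-type arrays and 0.04, 0.07 and 0.02 on the knockout arrays. The phases thus moved together from array to array, with at most 0.05 between them on any array, on knockout replicate 4. The knockout arrays lay within the range of the wild-type arrays for G2/M genes, and only knockout replicate 4 lay just above that range for S phase genes.

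**Figure D3:**
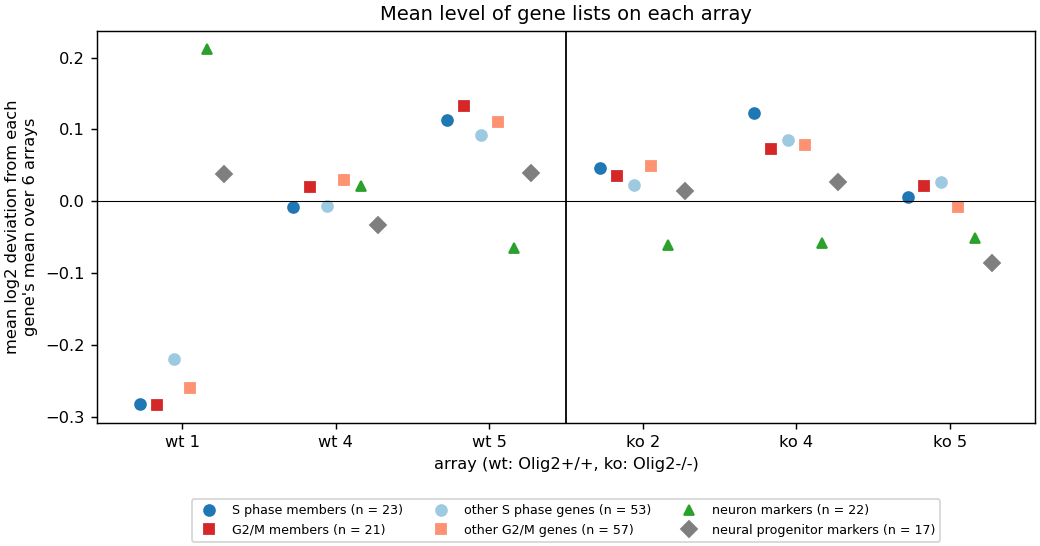
Mean deviation (log2) from each gene's 6-array mean on each array, for the member S phase and G2/M genes and for the other gene lists. S phase and G2/M genes both lie at -0.28 on wild-type replicate 1, while the neuron list is at its highest there, at 0.21.

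No member passed limma's adjusted test, with a smallest adjusted p of 0.511 among them. At an unadjusted p below 0.05, 1 of the 44 members was higher in the knockout and 0 were lower, against 3.99% of all genes higher and 3.91% lower. Each knockout array exceeded every wild-type array in 5 members, Ccne2, Cdt1, Mcm4, Cenpa and Tpx2, and 0 members had the reverse. Over all genes, 8.45% were above and 7.96% below in this way. Without wild-type replicate 1, 1 member was higher and 0 lower at an unadjusted p below 0.05, against 2.82% and 2.70% of all genes. The groups then did not overlap in 5 members above, the same 5, and in 2 below, Cenpf and Top2a, against 12.0% of all genes above and 10.6% below.

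**Figure D4:**
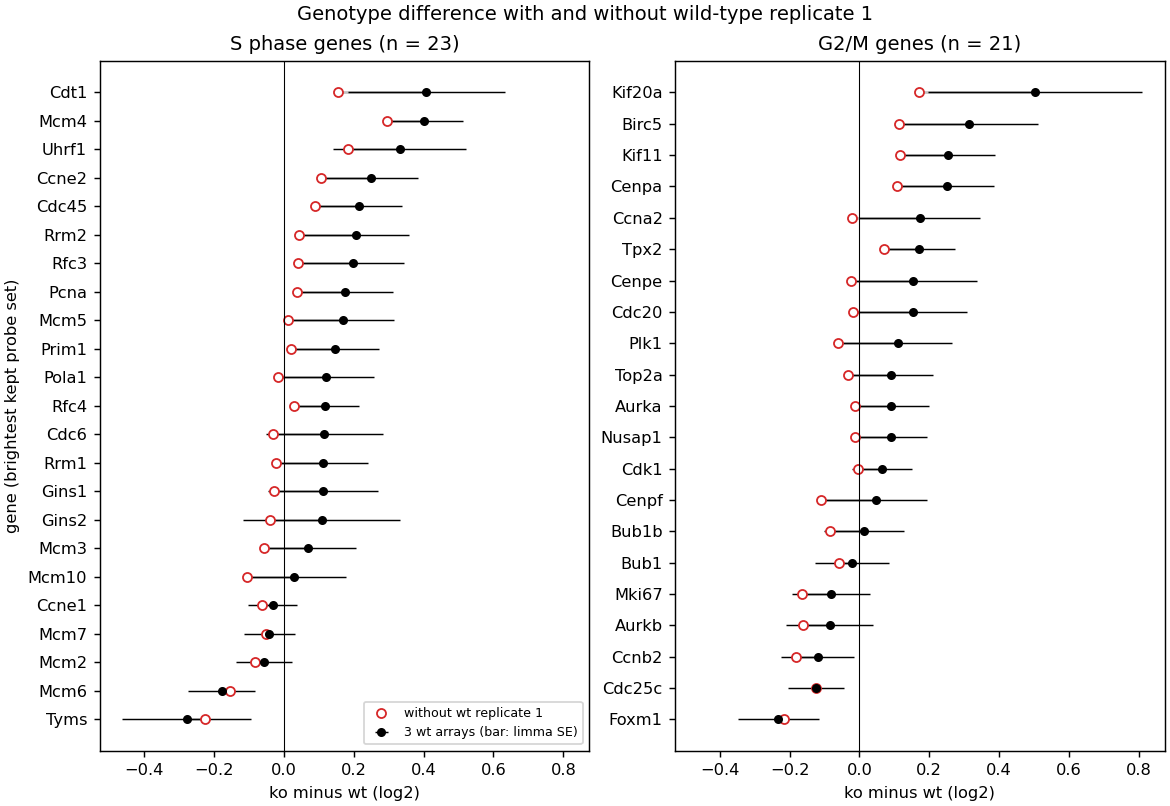
Knockout minus wild-type difference (log2) of each measured member with all 6 arrays and without wild-type replicate 1, S phase and G2/M genes apart; bars are the limma SE of the 6-array difference. Most points lie above 0 with all arrays (33 of 44), fewer do so without wild-type replicate 1 (16 of 44), and Mcm4 lies farthest above 0 in the latter setting at 0.30.

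Among the 6 helicase subunits the genotypes differed most in Mcm4. Mcm4 read 9.14, 9.45 and 9.46 on wild-type replicates 1, 4 and 5 and 9.81, 9.66 and 9.79 on knockout replicates 2, 4 and 5. All knockout arrays were higher than all wild-type arrays, and replicate 1 was the lowest wild-type array. The means were 9.35 ± 0.18 (SD, n = 3) in wild type and 9.75 ± 0.08 (SD, n = 3) in knockout. This is a 1.32-fold difference, 0.40 on the log2 scale with SE 0.11 and a 95% interval of 0.13 to 0.67 (limma's unadjusted p = 0.012, adjusted p = 0.511). With wild-type replicate 1 left out it was 0.30. This probe set has the suffix _x_at, given to sets whose probes may match other transcripts, and a dimmer kept probe set of Mcm4 gave 0.13, and 0.02 without that array.

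The other subunits of the same ring lay on either side of 0. Mcm2 read 8.69, 8.66 and 8.87 in wild type and 8.67, 8.69 and 8.68 in knockout, in the array order used for Mcm4, which also holds for the genes that follow. Its knockout arrays fell within the wild-type range, and wild-type replicate 5 was the highest. The difference was -0.06, and -0.08 without wild-type replicate 1, but a dimmer kept probe set gave 0.16 and 0.03. Mcm6 read 10.27, 10.07 and 10.33 in wild type and 10.08, 10.11 and 9.95 in knockout. Here wild-type replicate 1 was among the higher arrays and wild-type replicate 4 among the lower, and the groups overlapped. The difference was -0.18 (SE 0.10), and -0.15 without wild-type replicate 1. A dimmer kept probe set of Mcm6 had its lowest value on wild-type replicate 1 and gave 0.15 and 0.10. Mcm7 read 11.37, 11.30 and 11.48 in wild type and 11.32, 11.34 and 11.37 in knockout, again with the groups overlapping, at -0.04 and, without wild-type replicate 1, -0.05. Mcm3 and Mcm5 were higher in the knockout by 0.07 and 0.17, and without wild-type replicate 1 their differences were -0.06 and 0.01.

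All 6 genes for origin licensing and firing were higher in the knockout with all arrays, by 0.03 to 0.41, and 2 of the 6, Cdt1 and Cdc45, were higher without wild-type replicate 1. Cdt1, the loading factor that brings the helicase to origins, read 7.95, 8.67 and 8.75 in wild type and 8.84, 8.98 and 8.78 in knockout. All knockout arrays were above all wild-type arrays, by a narrow margin from wild-type replicate 5 and by a wide one from replicate 1. The difference was 0.41 (SE 0.22), and 0.15 without wild-type replicate 1. A dimmer kept probe set of Cdt1 gave 0.04 and -0.03, with overlapping groups. Cdc6, which loads the helicase with Cdt1, differed by 0.12 and, without that array, by -0.03. Cdc45 differed by 0.21 and 0.09 in the same way. The GINS subunits Gins1 and Gins2 both had a difference of 0.11, which became -0.03 and -0.04. A dimmer kept probe set of Gins2 gave 0.30 and 0.18, with no overlap. That of Gins1 read only 3.38 to 3.50 and gave -0.03 and 0.01. Mcm10, which acts when the helicase is switched on, had 0.03 and then -0.10.

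At their brightest probe sets, the 5 genes of the replication fork itself were all higher in the knockout with 6 arrays. Without wild-type replicate 1, 4 of the 5 were higher, by at most 0.04. Pcna, the sliding clamp, read 11.92, 12.31 and 12.35 in wild type and 12.38, 12.47 and 12.27 in knockout. Wild-type replicate 1 was the lowest by a clear gap, and the other 5 arrays were mixed. The difference was 0.18 (SE 0.14), and 0.04 without that array. Rfc3, a subunit of the clamp loader, read 8.64, 9.12 and 9.10 in wild type and 9.18, 9.08 and 9.18 in knockout. It had the same form, with 1 low wild-type array and 5 arrays close together, and a difference of 0.20 that became 0.04. A dimmer kept probe set of Rfc3 gave 0.31, and 0.20 without wild-type replicate 1, with all knockout arrays above all wild-type arrays. Rfc4, of the same loader, differed by 0.12, and by 0.03 without wild-type replicate 1. A dimmer kept probe set of Rfc4 gave 0.34 and 0.14, also with no overlap. Pola1, the catalytic subunit of DNA polymerase alpha, had 0.12 and then -0.02. Prim1, the primase that makes its primers, had 0.15 and then 0.02.

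Of the enzymes that supply nucleotides, Rrm2, the small subunit of ribonucleotide reductase, read 10.95, 11.42 and 11.46 in wild type and 11.49, 11.55 and 11.40 in knockout. The low array was again wild-type replicate 1, and the difference of 0.21 became 0.04 without it. Rrm1, the large subunit, differed by 0.11 and then by -0.02. Tyms went the other way, at -0.28 with all arrays and -0.23 without wild-type replicate 1. A dimmer kept probe set of Tyms, which read only 3.14 to 3.62, gave 0.06 in both settings.

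The E cyclins, which drive entry into S phase, did not read alike, but the Ccne1 probe set was nearly flat. Ccne1 read 5.64, 5.67 and 5.79 in wild type and 5.67 on each of the 3 knockout arrays. The knockout values lay inside the wild-type range, at a difference of -0.03, and -0.06 without wild-type replicate 1. Their SD was 0.0017, and knockout replicate 2 and wild-type replicate 4 had the identical value 5.668723. A dimmer kept probe set of Ccne1, at 4.41 to 5.21, gave -0.13 and -0.15 with overlapping groups. Ccne2 read 7.63, 8.06 and 8.07 in wild type and 8.12, 8.24 and 8.15 in knockout. Here the knockout was above the wild type on every array, although closely above replicates 4 and 5. The difference was 0.25 (SE 0.14), and 0.11 without wild-type replicate 1. Uhrf1, which brings the maintenance DNA methyltransferase to newly copied DNA, read 8.14, 8.74 and 8.44 in wild type and 8.74, 9.02 and 8.55 in knockout. The groups overlapped, with wild-type replicate 4 level with knockout replicate 2. Its difference was 0.33 (SE 0.19), and a dimmer kept probe set gave 0.76. Without wild-type replicate 1 these were 0.18 and 0.28.

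In G2/M, Cdk1, Ccna2 and Cdc20 showed little beyond the low array. Cdk1 read 9.13, 9.30 and 9.39 in wild type and 9.33, 9.36 and 9.33 in knockout, so that the knockout lay between wild-type replicates 4 and 5. The difference of 0.07 became -0.0052 without replicate 1. Ccna2, cyclin A2, which partners kinases in both S phase and G2 and was counted with G2/M here, read 8.67, 9.22 and 9.29 in wild type and 9.27, 9.26 and 9.17 in knockout. Only wild-type replicate 1 was apart, and the difference of 0.17 (SE 0.17) became -0.02 without it. Cdc20 read 9.98, 10.47 and 10.51 in wild type and 10.53, 10.46 and 10.42 in knockout. It showed the same picture, with 0.15 becoming -0.02. Ccnb2, a B-type cyclin, and Cdc25c, the phosphatase that activates Cdk1, each had a difference of -0.12, which became -0.18 and -0.13. Without wild-type replicate 1 none of these 5 genes was higher in the knockout.

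Among 6 mitotic kinases and checkpoint genes, Birc5 differed most. Birc5, or survivin, a member of the chromosomal passenger complex, read 8.12, 8.81 and 8.61 in wild type and 8.76, 9.03 and 8.69 in knockout. The groups overlapped through wild-type replicate 4, and replicate 1 was far below the rest. The difference of 0.31 (SE 0.20) became 0.11 without that array. Aurkb, the kinase of that complex, read 7.31, 7.40 and 7.67 in wild type and 7.45, 7.46 and 7.21 in knockout. Its lowest array was knockout replicate 5 and its highest wild-type replicate 5, with a difference of -0.09 that became -0.16 without wild-type replicate 1.

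Aurka, the kinase of spindle poles, read 7.17, 7.50 and 7.45 in wild type and 7.39, 7.49 and 7.50 in knockout. Plk1 read 7.39, 7.88 and 7.92 in wild type and 7.77, 7.91 and 7.83 in knockout. In both genes wild-type replicate 1 was lowest and the remaining arrays overlapped, and their differences of 0.09 and 0.11 became -0.01 and -0.06 without it. Bub1 and Bub1b, of the spindle checkpoint, differed by -0.02 and 0.01, and by -0.06 and -0.08 without that array.

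The 4 spindle proteins were all higher in the knockout with 6 arrays, by 0.09 to 0.50, and 3 of them without wild-type replicate 1. Kif20a, a motor needed for cytokinesis, read 5.93, 6.83 and 7.04 in wild type and 7.22, 6.85 and 7.25 in knockout. It had the largest difference of the 44 members, 0.50 (SE 0.31), and the largest gap of wild-type replicate 1, at -1.002 against the mean of replicates 4 and 5. Knockout replicate 4 lay below wild-type replicate 5, so the groups overlapped, and the difference was 0.17 without wild-type replicate 1. Kif11 read 8.30, 8.66 and 8.77 in wild type and 8.86, 8.89 and 8.75 in knockout. Knockout replicate 5 was just below wild-type replicate 5, and the difference of 0.25 (SE 0.13) became 0.12. The dimmer kept probe sets of Kif11 gave 0.38 and 0.42, which became 0.18 and 0.16. In both, all knockout arrays were above all wild-type arrays. Tpx2, an activator of Aurka on the spindle, had 0.17 and then 0.07 with no overlap, but -0.07 and -0.09 at a dimmer kept probe set. Nusap1, a microtubule-binding protein, had 0.09 and then -0.01.

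Of the genes for centromeres and mitotic chromosomes, Cenpa encodes the histone H3 variant that marks centromeres. It read 8.21, 8.61 and 8.67 in wild type and 8.68, 8.76 and 8.80 in knockout. The knockout was above the wild type on every array, by 0.25 (SE 0.13) and by 0.11 without wild-type replicate 1. A dimmer kept probe set gave -0.26 and -0.31, but it read only 3.07 to 4.19. Cenpf, a kinetochore protein, read 8.41, 8.85 and 8.92 in wild type and 8.78, 8.82 and 8.72 in knockout. Its 3 knockout arrays lay below wild-type replicates 4 and 5 and above replicate 1, so that 0.05 became -0.11. Top2a read 10.51, 10.87 and 10.90 in wild type and 10.86, 10.84 and 10.85 in knockout, in the same order, and 0.09 became -0.03. Cenpe, a kinetochore motor, had 0.15 and then -0.02.

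Mki67, which encodes the proliferation marker Ki-67, read 10.28, 10.41 and 10.64 in wild type and 10.44, 10.35 and 10.29 in knockout. Wild-type replicates 1 and 5 were its lowest and highest arrays, with all knockout arrays between them. Its difference was -0.08 (SE 0.11), and -0.16 without wild-type replicate 1. Foxm1, a transcription factor that drives many of the mitotic genes, read 5.98, 5.83 and 6.02 in wild type and 5.81, 5.83 and 5.50 in knockout. It was the G2/M gene with the lowest difference, -0.23 (SE 0.12), its value without wild-type replicate 1 was -0.21, and all 3 of its kept probe sets were lower in the knockout, the others by little.

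Probe sets of 1 gene did not always give the same sign. Of 29 members with 2 or more kept probe sets, 15 had all of them higher in the knockout, 4 had all lower and 10 had both signs: Mcm2, Mcm6, Mcm7, Gins1, Tyms, Bub1b, Cdc20, Cenpa, Nusap1 and Tpx2. The median range of the difference within a gene was 0.17, and it reached 0.51 in Cenpa. In Cenpa, Cdc20, Gins1 and Tyms the dimmest probe set, of opposite sign to the brightest, had low values. These were 3.07 to 4.21, against array medians of 3.14 to 3.19. Over all 81 kept probe sets the knockout mean was higher in 57 and lower in 24, against 35 and 46 without wild-type replicate 1. The low reading of wild-type replicate 1 was not confined to the brightest probe sets. That array was lowest for 59 of the 81, against 27.0% of all genes at their brightest probe set. The share over all kept probe sets is not given here. Of the 9 members whose brightest probe set was not lowest there, 4 had another kept probe set that was. At least 1 such probe set was found in 39 of the 44 genes. This last count rises with the number of probe sets per gene. Among the 44 brightest probe sets, 7 carry the suffix _x_at (Ccne1, Mcm4, Mcm5, Rrm2, Aurkb, Cdc20 and Cdc25c) and 2 the suffix _s_at (Mcm3 and Mcm7), both given where probes may match more than 1 transcript.

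**Figure D5:**
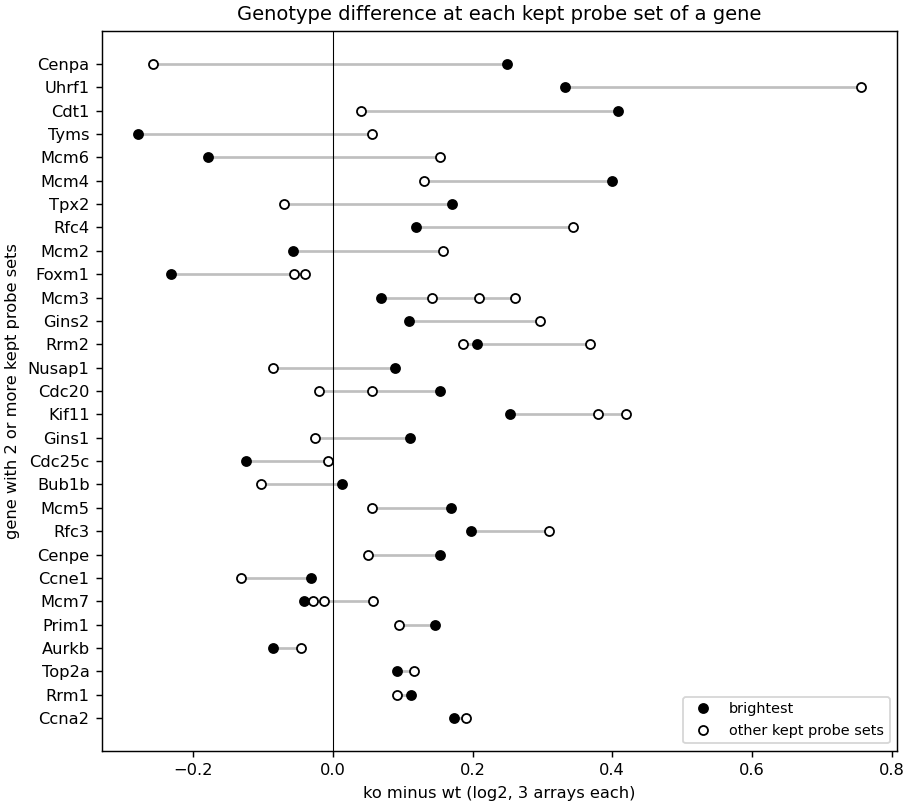
Knockout minus wild-type difference (log2, 3 arrays each) at each kept probe set of the 29 members with 2 or more, with the brightest probe set filled and a line from the lowest to the highest. The line crosses 0 in 10 genes and is longest in Cenpa, from -0.26 to 0.25, where the dimmer probe set read only 3.07 to 4.19.

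Other replication and mitosis genes, which are not on the list of 46, were read in the same way. Of 53 kept S phase genes, the knockout mean was higher in 40 and lower in 13 (median 0.06), and in 28 and 25 without wild-type replicate 1 (median 0.0042). None of them had an unadjusted p below 0.05 with limma on 6 arrays. Of 57 kept G2/M genes 38 were higher and 19 lower (median 0.12), and 27 and 30 without it (median -0.01), with 1 in each direction at an unadjusted p below 0.05. The S phase genes of lowest p were Tk1, thymidine kinase, at 0.36 (SE 0.15), and Gins3, the GINS subunit that joins Gins1 and Gins2, at 0.22 (SE 0.09). Those of G2/M were Ncapd2, a condensin subunit, at -0.46 (SE 0.16), and Kif22, a chromosome-bound kinesin, at 0.18 (SE 0.06). All 4 had an adjusted p of 0.511. Wild-type replicate 1 averaged -0.22 in the other S phase genes and -0.26 in the other G2/M genes, close to the members.

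Several other readings were at an extreme on wild-type replicate 1, and others given here were not. All 22 neuron markers were kept, their mean level was 10.46 on that array against 10.19 to 10.27 on the other 5, and 14 of the 22 (63.6%) were highest there, against 31.4% of all genes. The 11 kept ventral forebrain markers, of 14, had a mean of 9.08 there against 8.79 to 8.84 elsewhere. Only 5 of the 11 (45.5%) were highest there, and their median deviation on that array was 0.04 against a mean of 0.22. The 17 kept neural progenitor markers, of 18, ranged from 9.30 to 9.37 in wild type and from 9.24 to 9.36 in knockout. They averaged 9.37 on both wild-type replicates 1 and 5, with a median deviation of -0.03 on replicate 1. Of 14 blood genes 6 were kept, with a mean of 8.11 on wild-type replicate 1 against 8.40 and 8.76 in the other wild types and 8.35 to 8.82 in the knockouts. Of the erythroid factors, Gata1 read 2.29 on all arrays, at the floor, and Klf1 read 2.28 to 2.34 and was not kept. Meningeal and mesenchymal genes, 5 kept of 14, averaged 6.82 on knockout replicate 2 against 4.52 to 5.52 on the others. Of 12 microglia genes 4 were kept, with a mean of 4.08 to 4.29 in wild type and 4.24 to 4.36 in knockout. Csf1r, a receptor of that lineage, read 5.46 to 6.19, while Aif1 read 2.28 to 2.30 and Ptprc 2.27 to 2.36 and neither was kept. Probe sets for 18S ribosomal RNA averaged 4.87 on wild-type replicate 1 against 5.38 to 7.57 elsewhere. The Gapdh 3′ minus 5′ difference was -0.41 there against -0.65 to -0.50, and that of Actb was 0.80, inside the range of 0.69 to 0.90. The part of these readings in the cell cycle result was not tested.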

How the data were processed

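The authors deposited 1 log2 expression value for each probe set and array. Array images went through GCOS and MAS 5.0, and GCRMA gave quantile-normalized summaries, per the series design text. These tools also stand in the submitters' processing notes, with other versions not given in the sources used here. Quantile normalization hides any change in total RNA. On each array 33.2% to 33.7% of values lie within 0.03 of the background floor, where differences are compressed.

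Sample titles gave the genotype and the replicate number. Genotypes were compared in each kept probe set by a two-sided test of limma 3.58.1 (lmFit, then eBayes; R 4.3.3), with Benjamini-Hochberg adjustment over all 22565 kept probe sets and a threshold of 0.05. The fit was tested on simulated data with independent noise on every array. That simulation held no array that was low across many genes, so it does not cover that situation. The members, the lists and the rule for named genes were chosen with earlier results of these data known, so lists have counts and medians and no test. That rule took genes by role, the 3 of lowest p per phase and the 3 per phase with the widest gap of wild-type replicate 1, and 2 genes per other list. Ccnb1, which it also named, has no value. Alternatives were arrays left out singly or in pairs, other filters and normalizations, other variance settings, a replicate block, other probe sets per gene and another phase split. Replicate numbers 4 and 5 occur in both genotypes with no stated meaning, so the comparison has no block.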

Additional observations from a re-analysis of the deposited data

How the results depend on the processing

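The count of probe sets with a limma adjusted p below 0.05 was 0 under every alternative run, and the count at an unadjusted p below 0.05 ranged from 1121 to 3491. Leaving out 1 array at a time, the S phase median difference ranged from -0.018 to 0.23, the G2/M median from -0.025 to 0.16 and the G2/M minus S phase difference from -0.087 to -0.0064. S phase genes higher in the knockout then ranged from 11 to 21 and G2/M genes from 5 to 18. With knockout replicate 2 and wild-type replicate 1 both left out, 8 G2/M genes were higher and their median was -0.027. Without knockout replicate 2 and wild-type replicate 4, the G2/M minus S phase difference was 5.6e-05. With array weights the medians were -0.012 (S phase, 11 higher) and -0.0031 (G2/M, 9 higher), 0.0094 apart. Using the dimmest kept probe set of each gene, the G2/M median was -0.0073 and lay at -0.14 from the S phase median; averaging the probe sets of each gene gave -0.071. With the replicate number as a replicate block, 8 G2/M genes were higher with a median of -0.027, and 12 S phase genes with a median of 0.01. Knockout replicate 2 and wild-type replicate 1 have no partner of their number. The block fit therefore gives the same differences as leaving both out and is not a separate check. The numbers were not taken as pairing the samples: deviations of the replicate 4 arrays correlated at -0.29 and those of the replicate 5 arrays at 0.32 over 22565 probe sets. Repeated normalization, median centring and the phase split kept the sign of both medians. Median centring only adds the same amount to every difference. The other filters and the trended robust variance leave these differences unchanged, so they could not test the sign. For the 25 named member genes and 18 alternatives, 32 of 450 differences had another sign, 7 of them without wild-type replicate 1. The 450 include the settings that could not change a sign, so the share is no measure of stability. With 3 arrays per genotype, differences of the size seen here are within the spread between arrays for nearly all members. Causes were not tested.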
